A study of Mus musculus with 265 samples.

Results

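Chromatin accessibility was examined at the genes of the IL-7 receptor signalling pathway in single pre-B cells, at the receptors Il7r, Flt3 and Kit, the kinases Jak1 and Jak3, the transcription factors Stat5a and Stat5b, and the feedback inhibitors Cish, Socs2 and Socs3. A region of the deposited matrix was taken as belonging to a gene when the start of that gene was the nearest protein-coding gene start in GENCODE vM21 and lay within 50 kb of the midpoint of the region. By this rule 24 of the 20103 regions belonged to 9 of the 10 genes. Jak1 had 7 regions, Socs2 5, Stat5a and Socs3 3 each, Flt3 2, and Il7r, Jak3, Stat5b and Cish 1 each. No region of the matrix was assigned to Kit, so Kit was not analysed here.

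The cells were ERt2-Ikaros inducible B3 cells, pre-B cells of a mouse line that carries the transcription factor Ikaros fused to a hormone-binding domain, and 4-hydroxytamoxifen (4OHT) brings this Ikaros into the nucleus. The 0-hour cells were collected before 4OHT and the 24-hour cells after 24 hours with it, with an additional dose during that time, and both carried the inducible construct and grew in IMDM with serum. Each time-point was captured in 2 runs of the Fluidigm C1, a device that isolates single cells in separate chambers, called runs 1 and 2 at 0 hours and runs 3 and 4 at 24 hours. Each run held cells of a single time-point, so run and time-point cannot be told apart other than by the spread between the 2 runs of a time-point. Whether the runs were separate cultures is not said in the labels, and the tests measure only the spread between runs, which may be technical. There is no arm with 4OHT in cells without the construct, so the effect of 4OHT and that of Ikaros cannot be told apart.

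The 4 runs held 48, 47, 60 and 72 cells, and 92639 to 164357 counts in all regions. The median cell held 2898 counts in run 1 and from 1676 to 1839.5 counts in the other runs, so that run 1 was the deepest. A cell holds 0, 1 or 2 counts in a region, and a deeper cell shows signal in more regions. The share of cells with signal was therefore also computed with every cell thinned to 837 counts, and is called the thinned share. This kept 48 of 48, 46 of 47, 47 of 60 and 63 of 72 cells of runs 1 to 4, so that of the 23 cells left out all but 1 were 24-hour cells. Of 12 B-lineage precursor marker genes, 10 had a region, 37 regions in all, with 1562 to 2078 CPM in sum in each run, where CPM are counts scaled to the normalized total of a run, and Rag1 and Cd22 had none. Of the T cell, myeloid and erythroid markers, 2 of 8, 1 of 6 and 1 of 5 had a region, 2, 1 and 1 regions in all, at 31.3 to 72.8, 0 to 41.8 and 20.9 to 97.0 CPM, sums that rise with the number of regions and are no comparison of levels.

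In B-cell development, IL-7 is the main growth and survival factor of early precursors. It binds a receptor made of the alpha chain encoded by Il7r and the common gamma chain, which carry JAK1 and JAK3. These kinases phosphorylate the receptor and STAT5A and STAT5B, which then dimerize, enter the nucleus and bind the palindrome TTCNNNGAA, where N is any base. Cish, Socs2 and Socs3 are among the genes that cytokine-activated STAT proteins switch on, and their proteins damp the same receptors. Flt3 and Kit encode receptor tyrosine kinases of early progenitors. Ikaros is a zinc finger protein required for lymphocyte development that binds sites with a GGGAA core.

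The sequences that bear on these factors are those of the Il7r start region, of the Cish start region and of the region 6.2 kb upstream of Socs3. The last 2 are the only member regions with TTCNNNGAA in a window of 150 bases around the midpoint. They are given on the forward strand of mm10, with matches to TTCNNNGAA and to GGGAA in capitals. Of the Il7r window only the bases outside annotated untranslated exons are given, and of the Cish window, which lies within the 5′ UTR exon of a longer transcript, only 30 bases around the matches.
Il7r, chr15:9529877-9529957: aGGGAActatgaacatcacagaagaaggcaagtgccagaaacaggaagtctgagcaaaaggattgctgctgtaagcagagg
Cish, chr9:107296654-107296683: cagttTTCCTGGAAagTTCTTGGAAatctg
Socs3, chr11:117976170-117976319: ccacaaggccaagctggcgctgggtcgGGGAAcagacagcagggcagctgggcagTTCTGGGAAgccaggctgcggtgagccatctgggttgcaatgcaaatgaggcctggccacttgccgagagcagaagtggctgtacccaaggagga

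The Cish window holds 2 STAT-type palindromes, TTCCTGGAA from 107296659 to 107296667 and TTCTTGGAA from 107296670 to 107296678. In the whole matrix only 14 of 20103 windows (0.0696%) hold 2 or more matches. The Socs3 window holds 1 palindrome, TTCTGGGAA from 117976225 to 117976233, which overlaps one of its 2 GGGAA matches. In all, TTCNNNGAA was found in 2 of the 24 member windows (8.33%) and in 3.32% of all windows. GGGAA, searched on both strands, was found in 10 of the 24 (41.7%) and in 39.2% of all windows. The ETS-type motif GAGGAAG was found in 3 (12.5% against 12.7%), the FOXO-type motif GTAAACA in 0 (1.35% of all) and the EBF-type motif CCCNNGGG in 4 (16.7% against 14.3%). A match is a description of the sequence only and does not show that a factor was bound.

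Of the 24 regions, 9 lay within 1 kb of the start of a protein-coding transcript of their gene and 15 lay farther away, a division made after the values were seen. The regions near starts were those of Il7r, Jak1, Jak3, Stat5a, Stat5b, Cish and Socs3 and a pair at Socs2. They had a median GC content of 66.7%, and the others one of 54.0%, close to the 65.3% and 52.7% over all regions of these kinds. Signal was found in 5 to 52 of the 227 cells, with a median of 10.5 cells against 13 over all regions, so that single regions rest on few cells. The study describes a limit of 5 cells for a region, and 5 is also the lowest number in the matrix. The limit counts the cells of both time-points, so a region can pass it through the time-point where it is high. Regions in fewer cells, at Kit or elsewhere, would not be in the matrix.

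**Figure D1:**
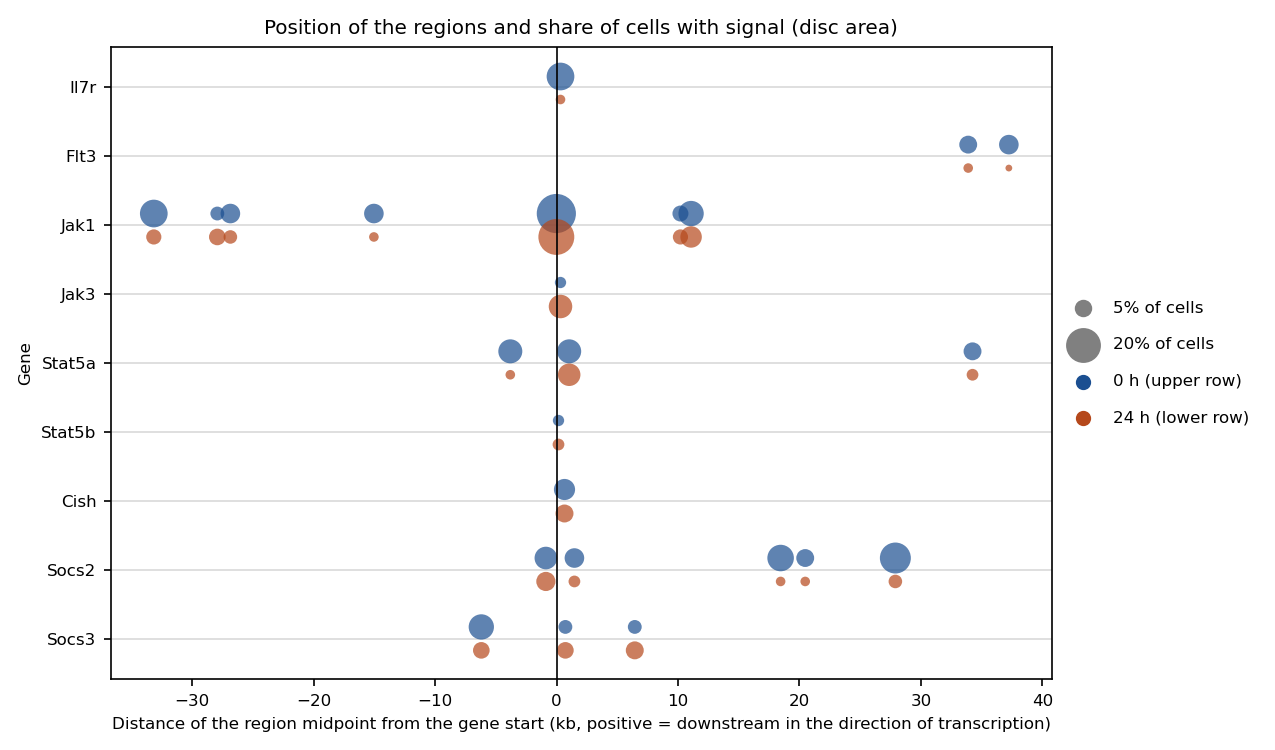
Position of the 24 regions relative to the start of their gene (horizontal axis, kb, positive in the direction of transcription), with 1 row for each gene. The area of a disc is the share of cells with signal, at 0 hours in the upper and at 24 hours in the lower disc of a row. The largest discs are those at the Jak1 start, and most regions away from the start of Socs2, Flt3 and Jak1 have a smaller disc at 24 hours.

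No member region passed an adjusted p of 0.05 in edgeR's quasi-likelihood test on the summed counts of the runs (lowest adjusted p = 0.275). Over all 20103 regions, 3 passed it with more signal at 0 hours (0.0149%) and 8 with more at 24 hours (0.0398%). At an unadjusted p of 0.05, 2 of the 24 were lower at 24 hours, at the Il7r start and upstream of Stat5a, and 0 were higher, where the same limit took in 7% and 5.11% of all regions. A further tool, DESeq2, also called 0 member regions. Its calls over all regions are not given here, so this 0 has no such share beside it. Below, a log2 change is that of the normalized signal at 24 hours against 0 hours from edgeR, with n = 2 runs at each time-point. The test gives no standard error. The one printed is the size of the log2 change divided by the square root of the F statistic of the test. Intervals on shares of cells are exact Clopper-Pearson 95% intervals and cover counting error only.

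Among the receptors, the region at the start of Il7r, which encodes the alpha chain of the IL-7 receptor, lies on chromosome 15 from 9529821 to 9529944. Its midpoint is 47 bp upstream of an annotated transcript start and it overlaps the 5′ UTR exon. Signal was found in 8 of 48 cells of run 1, 4 of 47 cells of run 2, 1 of 60 cells of run 3 and 1 of 72 cells of run 4, which is 16.7% and 8.51% against 1.67% and 1.39%. The runs of the time-points thus did not overlap, and the 0-hour runs were the higher. Over the cells of a time-point the share was 12.6% (interval 6.70% to 21%) at 0 hours and 1.52% (interval 0.184% to 5.37%) at 24 hours. The thinned shares kept this order, at 5.14% and 6.43% against 0.438% and 0.605%. The signal was 84.9 and 73.1 CPM at 0 hours and 8.09 and 14.7 CPM at 24 hours, and the log2 change was -2.69 with a standard error of 1.04. This had the lowest unadjusted p among the member regions (0.0124 from edgeR) and an adjusted p of 0.275, which does not pass the threshold. It rests on 14 cells, and the 0-hour cells with signal had a median depth of 3389.5 counts.

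The 2 regions of Flt3, which encodes the receptor for FLT3 ligand on early lymphoid progenitors, lie inside the gene body, 33.9 kb and 37.2 kb downstream of its start, on chromosome 5 from 147366520 to 147366658 and from 147363198 to 147363287. The former was found in 3, 2, 0 and 2 cells and the latter in 4, 2, 0 and 1 cells of runs 1, 2, 3 and 4. Cells with signal in either made up 12.5% and 8.51% of the cells before 4OHT and 0% and 2.78% of those after it. The count of 0 of 60 cells in run 3 allows a share of up to 5.0%. The 0-hour runs lay above the 24-hour runs in both regions, also in thinned shares, with the summed Flt3 signal at 72.8 and 62.7 CPM against 0 and 22 CPM. The log2 change of the sum was -2.48 with a standard error of 1.08 (adjusted p = 0.304 from edgeR over all genes). It was -1.60 without run 3 and -6.15 without run 4, where the remaining 24-hour run has no signal.

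Of the kinase genes, Jak1, whose product is bound to the alpha chain, had the region with signal in most cells. Its start region, on chromosome 4 from 101265226 to 101265376 with its midpoint 19 bp upstream of the start, was found in 52 of 227 cells (22.9%), more than in 96.5% of all regions within 1 kb of a transcript start. By run, the shares were 31.2% and 19.1% at 0 hours, then 21.7% and 20.8% at 24 hours, so that run 1 was the highest and the other 3 were close together. The CPM of the time-points overlapped, at 158 and 178 against 154 and 176, with a log2 change of -0.02 and a standard error of 0.51. In thinned shares the 24-hour runs lay above, at 11.9% and 12.5% against 10.5% and 10.9%, and the sign of the log2 change turned with several settings. A change in either direction was not detectable here. Cells with signal had a median of 2979 counts and the others one of 1716.

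The other 6 Jak1 regions lie from 33.2 kb upstream to 11.1 kb downstream of the start and were found in 8 to 20 cells each. The region 33.2 kb upstream, within the noncoding RNA gene Gm12796, was found in 12.5% and 12.8% of cells of the 0-hour runs against 5.0% and 2.78% of cells of the 24-hour runs. The 0-hour runs lay above also in thinned shares, at 3.20% and 6.63% against 2.23% and 1.85%, and the log2 change was -1.42 with a standard error of 0.92 (-0.82 without run 2). The region 15.0 kb upstream was found in 6.25% and 6.38% against 1.67% and 1.39% of cells, with a log2 change of -2.25 and a standard error of 1.37. Its thinned shares were 1.31% and 2.97% against 0.478% and 1.01%, with a log2 change of -1.27 on thinned cells and -1.42 on detected or not detected values. The runs of the time-points overlapped in the other 4, at 27.9 and 26.9 kb upstream and 10.2 and 11.1 kb downstream, and their log2 changes lay between -0.43 and 0.72. With a run left out these changed widely, such as from 0.53 to 1.31 without run 1 at 10.2 kb downstream and from 0.72 to 0.039 without run 4 at 27.9 kb upstream. At least 1 Jak1 region had signal in 47.9% and 42.6% of cells at 0 hours, against 33.3% and 36.1% at 24 hours, and the log2 change of the Jak1 sum was -0.34 with a standard error of 0.36.

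Jak3, whose product is bound to the common gamma chain, had 1 region, on chromosome 8 from 71676505 to 71676650, over the 5′ UTR exon 282 bp downstream of the start. It was found in 0 of 48 and 2 of 47 cells at 0 hours and in 3 of 60 and 9 of 72 cells at 24 hours, shares of 0%, 4.26%, 5.0% and 12.5%. The count of 0 in run 1, the deepest run, allows a share of up to 6.25%. By share of cells, no other member region had its 2 highest values in the 24-hour runs. In thinned shares run 3, at 1.12%, fell between the 0-hour runs, at 0% and 1.79%, while run 4 was at 5.42%. The log2 change of 1.98 had a standard error of 1.22 and an adjusted p of 0.546 from edgeR. It was 0.76 without run 1, 5.93 without run 2, where the remaining 0-hour run has no signal, and 0.88 without run 4.

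Stat5a and Stat5b encode the closely related STAT5 proteins and lie side by side on chromosome 11. The region 3.8 kb upstream of Stat5a, from 100855470 to 100855613, was found in 6, 3, 1 and 1 cells of runs 1 to 4, shares of 12.5% and 6.38% at 0 hours against 1.67% and 1.39% at 24 hours. The 0-hour runs lay above the 24-hour runs by share, by thinned share (4.86% and 2.57% against 1.74% and 0.437%) and by CPM (66.7 and 52.2 against 8.09 and 7.33). Its log2 change was -2.82 with a standard error of 1.21, an unadjusted p of 0.0238 and an adjusted p of 0.319 from edgeR, so that it did not pass the threshold. The log2 change was -1.81 on thinned cells and -1.97 on detected or not detected values. The Stat5a start region, from 100860310 to 100860471, lies 45.5 bp downstream of a transcript start and 1.04 kb downstream of the gene start. There the runs overlapped, with signal in 14.6% and 4.26% of cells at 0 hours, against 11.7% and 5.56% at 24 hours. Its log2 change was 0.32 with a standard error of 0.77, and that of the sum of the 3 Stat5a regions was -0.62 with a standard error of 0.55 (-0.17 without run 1). The region 34.3 kb downstream, which overlaps the neighbouring gene Stat3, was found in 4, 1, 0 and 3 cells. The start region of Stat5b, only 37 bp wide, was found in 0, 2, 0 and 3 cells, too few to compare.

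Of the feedback genes, Cish had its start region, with the pair of palindromes shown above, in 5 and 2 cells at 0 hours and in 2 and 5 cells at 24 hours. The shares of 10.4% and 4.26% against 3.33% and 6.94% overlapped, and the log2 change was 0.02 with a standard error of 0.97. Signal at the most STAT-rich of the member windows thus did not differ beyond the spread between runs, at a depth of 14 cells with signal.

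Socs2, whose product takes part in ending growth hormone and cytokine signals, had 2 regions near transcript starts and 3 within the gene body, 18.5, 20.5 and 27.9 kb downstream of the gene start. The region at 27.9 kb, on chromosome 10 from 95389202 to 95389356, was found in 16.7% and 14.9% of cells at 0 hours but 1.67% and 4.17% at 24 hours. Its thinned shares were 7.62% and 9.28% against 0.417% and 1.38%, so the time-points stayed apart at matched depth, and its log2 change was -1.75 with a standard error of 0.93 (-1.08 without run 3, -3.13 without run 4 and -2.94 on thinned cells). The region at 18.5 kb was found in 16.7% and 6.38% against 1.67% and 1.39% of cells, with a log2 change of -2.26 and a standard error of 1.13. The region at 20.5 kb rested on run 1, with 5 cells there and 0, 1 and 1 in the others. Of the regions near starts, that on chromosome 10 from 95415643 to 95415778, 226 bp upstream of a transcript start within the gene, was found in 6.25% and 6.38% against 3.33% and 1.39% of cells. The 0-hour runs were the higher by share, but the thinned shares of 0.986% and 2.17% against 1.58% and 0.280% overlapped, and the log2 change was -0.996 with a standard error of 1.28 (-1.98 without run 3, -0.37 without run 4 and -0.62 on thinned cells). The runs overlapped in both measures in the region 881 bp upstream of the gene start, within a noncoding RNA gene that shares the promoter, which had a log2 change of 0.63 with a standard error of 0.91. Cells with signal in at least 1 Socs2 region numbered 36 of 95 at 0 hours (37.9%, interval 28.1% to 48.4%) and 17 of 132 at 24 hours (12.9%, interval 7.68% to 19.8%). By run this was 43.8% and 31.9% against 8.33% and 16.7%, and 19.0% and 16.8% against 3.49% and 8.99% in thinned shares. The log2 change of the sum was -0.95 with a standard error of 0.49 (unadjusted p = 0.0578, adjusted p = 0.425 from edgeR), and was -0.42 without run 3 and -1.85 without run 4.

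Socs3, whose product blocks JAK activity at cytokine receptors, had regions 6.2 kb upstream, at its start and 6.4 kb downstream. The upstream region, shown above for its palindrome, was found in 5 and 5 cells at 0 hours and in 1 and 5 cells at 24 hours. In thinned shares it lay at 4.16% and 7.76% against 0.785% and 3.24%, whereas the CPM of runs 1 and 4 crossed, at 48.5 and 51.3, and the log2 change was -0.89 with a standard error of 0.91 (-0.50 without run 2, -0.30 without run 3, -1.91 without run 4 and -1.34 on thinned cells). The start region was found in 1, 2, 3 and 3 cells of runs 1 to 4, and the downstream one in 2, 1, 4 and 3. The log2 changes of the 3 regions differed in sign, and their sum had a log2 change of 0.03 with a standard error of 0.59.

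**Figure D2:**
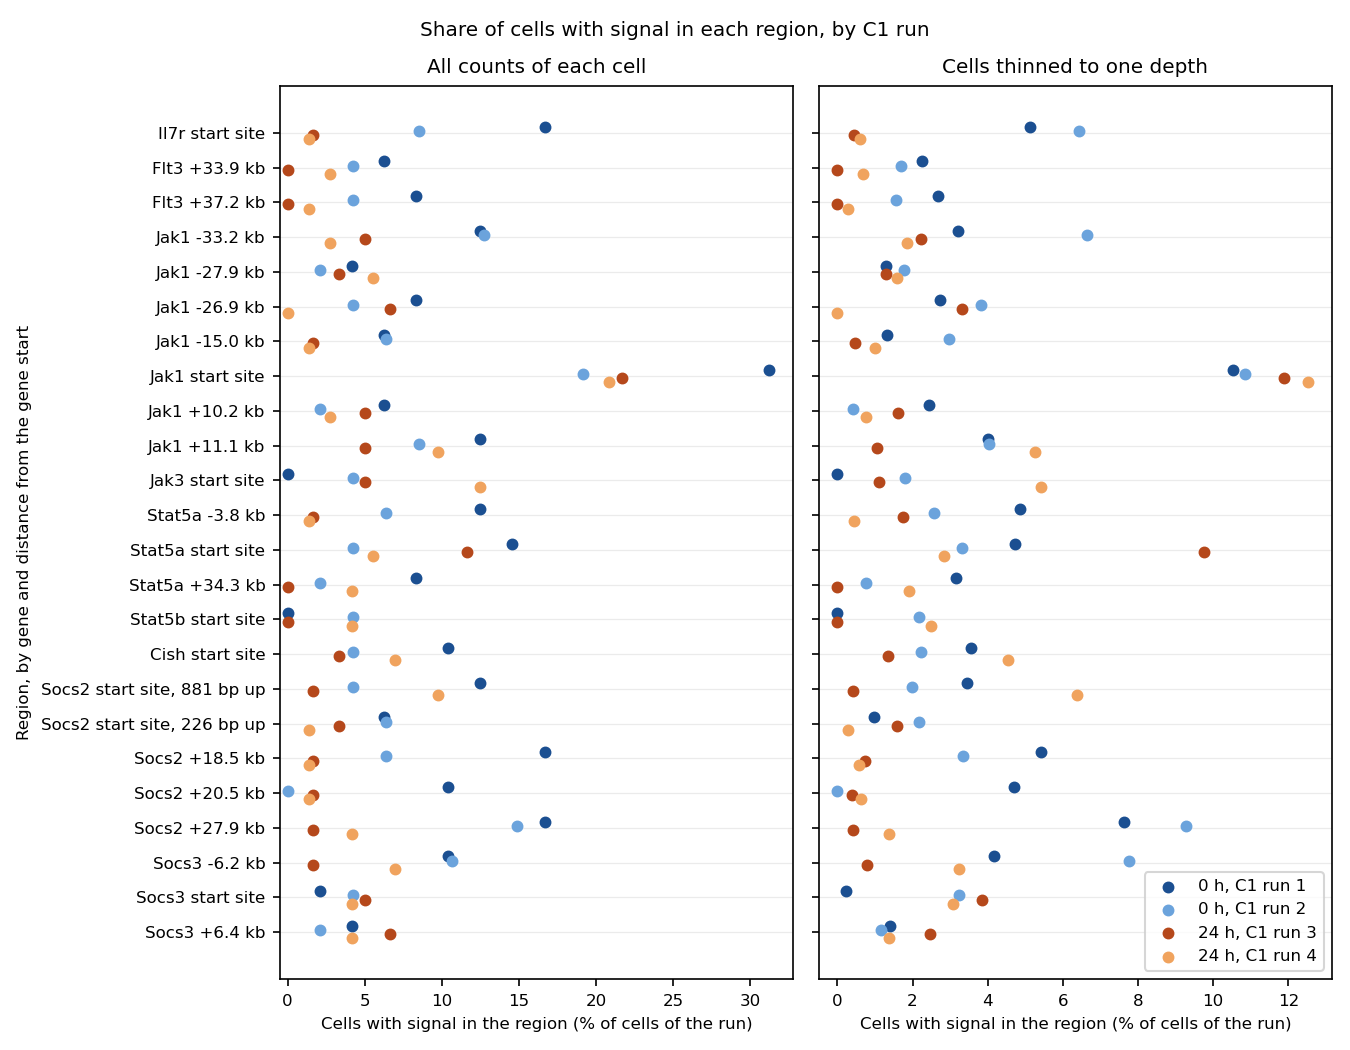
Share of cells of each C1 run with signal in each of the 24 regions (%), with all counts of each cell on the left and as the expected share after thinning every cell to 837 counts on the right, with 1 point for each run. At the Il7r start and 27.9 kb downstream of the Socs2 start the 0-hour runs (blue) lie to the right of the 24-hour runs (orange) in both panels, and at the Jak1 start the 4 runs lie between 10.5% and 12.5% after thinning.

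Changes below 0 were found mostly away from starts. Of the 15 farther than 1 kb, 12 had a log2 change below 0 and 3 above, with a median of -1.18, beside a median of -0.61 and 66.9% below 0 over all 10015 regions of this kind. Of the 9 near starts, 3 were below 0 and 6 above, with a median of 0.32, beside 0.30 and 37.2% below 0 over all 10088 such regions. The members near starts thus had about the median of all such regions, and those farther away lay below theirs. This difference was not tested, and the regions of a gene share their cells. At an unadjusted p of 0.05 from edgeR, only 1 of the 15 was lower at 24 hours, beside 11.8% of all regions of this kind. Of the 9 near starts 1 was lower, beside 2.22% of all such regions. By share of cells both 0-hour runs were above both 24-hour runs in 10 of the 24 members (41.7%), where this held for 33.7% of all regions, and the reverse held in 1 member and in 8.59% of all. By thinned share the counts were 9 (37.5%) and 1, where all regions gave 26.5% and 17.4%.

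Within the 15 regions away from starts, the thinned shares of both 0-hour runs were above in 8 (53.3%) and those of both 24-hour runs in 0, against 37.2% and 10.2% of all such regions. Within the 9 near starts each order occurred in 1, at Il7r and Jak1, against 15.9% and 24.5%. A thinned cell was expected to show 0.512 and 0.478 of the 15 regions at 0 hours against 0.165 and 0.210 at 24 hours. Over the whole class of regions away from starts the 0-hour runs were also higher, at 312 and 316 against 246 and 180 regions in a thinned cell. For the 9 near starts the values were 0.286 and 0.342 against 0.304 and 0.382, and overlapped. Before thinning, at least 1 of the 24 regions had signal in 87.5% and 76.6% of cells at 0 hours against 55.0% and 52.8% at 24 hours, and the members held 0.110% and 0.119% against 0.0653% and 0.0891% of the counts of a run.

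**Figure D3:**
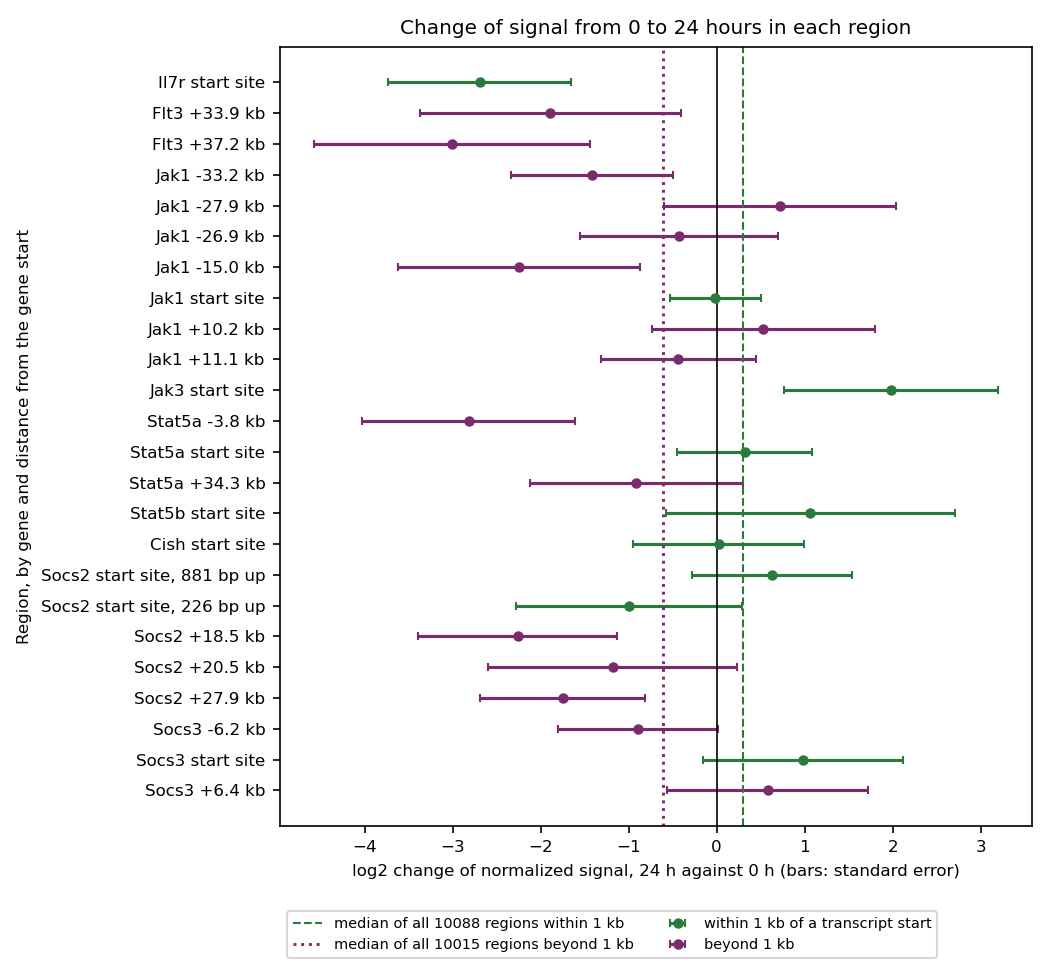
The log2 change of normalized signal from 0 to 24 hours in each of the 24 regions, with its standard error as bars (n = 2 runs at each time-point), green within 1 kb of a transcript start and purple beyond. The dashed and dotted lines are the medians over all 10088 and 10015 regions of the 2 kinds, at 0.30 and -0.61, and the bars of most members reach or cross the line of their kind.

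With the regions of a gene summed, 0 of the 9 member genes passed an adjusted p of 0.05 from edgeR (lowest 0.225, for Il7r), and DESeq2 called 0 as well. Of all 9893 genes with a region, 8 passed in edgeR with more signal at 0 hours (0.0809%) and 18 with more at 24 hours (0.182%). The calls of DESeq2 over all genes are not given here, so its 0 has no such share beside it. At an unadjusted p of 0.05 the sums of 2 member genes, Il7r and Flt3, were lower at 24 hours and 0 were higher, where the same limit took in 5.12% and 7.35% of all genes. The median log2 change over all genes was 0.15. Over the cells of both time-points pooled, by the number with signal in at least 1 region, Jak1 came first (89 of 227 cells over 7 regions), followed by Socs2 (53 over 5), Stat5a (34 over 3) and Socs3 (33 over 3), then Il7r, Jak3 and Cish (14 each over 1), Flt3 (12 over 2) and Stat5b (5 over 1). This order follows the number of regions closely and holds for the pooled cells only. The 14 cells of Il7r, Jak3 and Cish were 12 at 0 hours and 2 at 24 hours, 2 and 12, and 7 and 7, and at 24 hours Socs3 had 18 cells and Socs2 17.

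**Figure D4:**
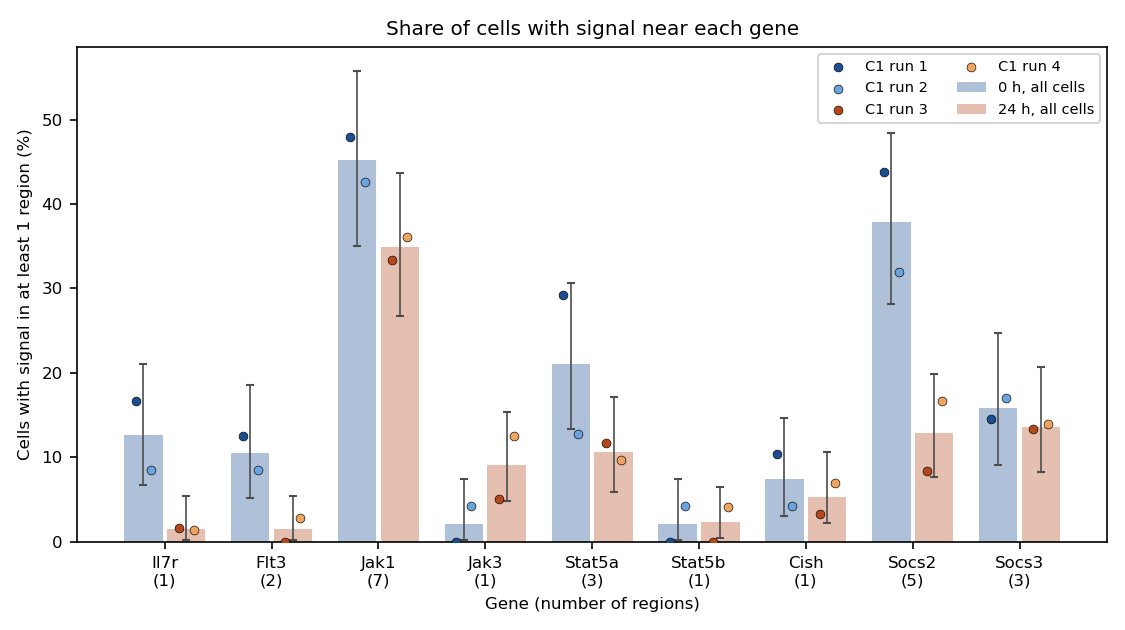
Share of cells with signal in at least 1 region of each gene (%). Bars pool the cells of a time-point, with exact 95% intervals for counting error, and points are the 4 C1 runs. The intervals of the 2 time-points do not overlap for Il7r and Socs2, and for all other genes shown they do. The shares are not thinned. The intervals leave out the spread between runs, so they are no test of a change.

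The wider pathway was looked at with 4 lists of genes, chosen from textbook knowledge with earlier results of these data known. Of 19 other cytokine receptor and ligand genes, 11 had a region, and the genes of the common gamma chain and of IL-7 itself, Il2rg and Il7, had none. Of these 11, 6 had a log2 change below 0 and 5 above, with a median of -0.09, and 1 was called, Ifngr2, which encodes a chain of the interferon gamma receptor and was lower at 24 hours. Its 6 regions had signal in 25 of 48 and 10 of 47 cells at 0 hours and in 10 of 60 and 5 of 72 cells at 24 hours, with a log2 change of -2.00, a standard error of 0.49 and an adjusted p of 0.0470 from edgeR. The call was lost in 8 of 11 other settings, which were looked at after the call was seen, with adjusted p from 0.00111 without run 3 to 0.608 without run 1. It was also lost without run 2 (0.438), without run 4 (0.222) and under DESeq2 (0.541). The log2 change was -2.33, -1.54 and -2.00 in these, -1.46 without run 1 and -1.12 on detected or not detected values, and stayed below 0 in all 11. Ifngr1, the other chain of that receptor, had 1 region with signal in 31.2% and 17% of cells at 0 hours against 30.0% and 38.9% at 24 hours, and its log2 change of 1.12 had a standard error of 0.45 and an adjusted p of 0.267 from edgeR. Il2ra, the alpha chain of the IL-2 receptor, which marks a stage of pre-B cells, had signal in 37.5% and 25.5% of cells at 0 hours and in 15.0% and 5.56% at 24 hours, with a log2 change of -1.38, a standard error of 0.53 and an adjusted p of 0.233 from edgeR.

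All 7 other JAK and STAT genes had a region and 0 were called, with 2 log2 changes below 0 and 5 above and a median of 0.02 (lowest adjusted p = 0.311 from edgeR). Those past an unadjusted p of 0.05 included Tyk2, higher at 24 hours, and Stat4, lower. All 16 other negative regulators had a region and 0 were called, with 8 below 0 and 8 above and a median of -0.02. Among them Pias4, an inhibitor of STAT proteins, had a log2 change of 1.08 and Ptpn6, which encodes the phosphatase SHP-1, one of -1.30, both past an unadjusted p of 0.05 only. Of the 12 genes listed as STAT5 targets in lymphoid cells, such as Bcl2l1, Mcl1, Pim1 and Myc, 0 were called and 0 passed an unadjusted p of 0.05, with 7 log2 changes below 0 and 5 above. Their median of -0.16 stands beside 0.15 over all genes. The medians of the other pathway lists, at -0.09, 0.02 and -0.02, were also below the latter.

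The regions whose set of cells was most like that of the Jak1 start were compared by the Jaccard index, the cells with signal in both as a share of the cells with signal in either. Of 3504 regions of other genes found in a similar number of cells, the 2 highest were those of Dynlt1a (0.321, 27 shared cells) and Inpp5f (0.314), against a median of 0.147. The likeness is given as a description, and the shared cells had medians of 3110 and 2997 counts, beside 1716 in cells without signal at the Jak1 start. The part of depth in it was not tested.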

How the data were processed

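Per the labels and the study's methods, the authors mapped 40 bp paired-end reads to mm10 with Bowtie2, removed duplicates with Picard, kept libraries above a fragment minimum, called peaks with HOMER on bulk replicates and deposited whole-number counts for 20103 regions in 227 cells, without normalization. No value exceeds 2, and the sources used here do not state what was done with larger values or whether region starts count from 0 or 1. The labels list 48, 63, 75 and 73 cells for the 4 runs. Bulk samples were not analysed here.

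For each run the counts of its cells were added up, since cells are not replicates, and 0 pairs of cells held identical values. edgeR 4.0.16 (R 4.3.3) tested time-point by its quasi-likelihood test with TMM, adjusted by Benjamini-Hochberg over 20103 regions or 9893 genes (threshold 0.05). All regions of the 10 genes were taken, and Kit had none. Values of 2 other genes are not reported here. Thinning used each cell's expected values at the 10th percentile of depth, and the limit for a count of 0 is 3 counts. No doublet caller was run, since capture sites were inspected by eye. The code was tested on simulated data. Alternatives were DESeq2 1.42.0, run totals, cell numbers as offset, detected or not detected, a filter, thinning, a block and each run left out. The member genes and lists were chosen with earlier results of these data known.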

Additional observations from a re-analysis of the deposited data

How the results depend on the processing

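No member region or gene was called under any of the 11 settings it entered, with the lowest adjusted p from edgeR or DESeq2 at 0.246 for regions and 0.212 for genes with all runs, and 0.154 and 0.175 with a run left out, where a lone run is assumed to vary like the others. The filter on low counts kept only 1 of the 24 regions, at the Jak1 start, and 4 member genes, Jak1, Stat5a, Socs2 and Socs3, so the others were not tested there. The sign of the change was kept in every setting that gave a value by 14 of the 24 regions and 3 of the 5 genes with several regions. With all runs, 166 of 179 values kept their sign. Scaling by cell number lowered the median log2 change of all regions from -0.063 to -0.51. The run order within a time-point did not pair the runs (correlation of deviations -0.023), and with this order as a replicate block the log2 change was -2.70 at Il7r and turned to -0.16 at Cish. A limit of 10 kb left 12 member regions.

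The sign also turned elsewhere, and the cause was not tested. At Cish it was -0.038 with run totals and -0.51 with cell numbers, and at the Stat5a start -0.18 with cell numbers. On detected or not detected values it was 0.29 at the Jak1 start, 0.057 at Jak1 +11.1 kb and 0.14 for the Jak1 sum. With thinning it was 0.33 at the Jak1 start, -0.22 27.9 kb upstream of Jak1 and -0.25 at Jak1 +10.2 kb. The Socs3 sum was -0.023 with run totals, -0.38 with cell numbers and -0.16 with thinning. With each run left out in turn, log2 changes ranged from -5.36 to 0.57 26.9 kb upstream of Jak1, from -0.11 to 0.082 at the Jak1 start, from -1.20 to 0.038 at Jak1 +11.1 kb, from -0.43 to 0.83 at the Stat5a start, from -3.25 to 4.48 at Stat5b, from -1.30 to 0.66 at Cish, from -1.21 to 1.39 at Socs2 881 bp upstream, from -2.00 to 3.58 at Socs2 +20.5 kb and from -0.37 to 0.49 for the Socs3 sum. At -5.36 for Jak1 and 3.58 for Socs2, the remaining run of a time-point had no signal. The same holds for both ends of the Stat5b range. Regions with signal in few cells limit what these runs can show.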
